A study of Caenorhabditis elegans with 40 samples.

Results

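The long-lived clk-1(qm30) mutant of the nematode Caenorhabditis elegans was compared with the wild type while repo-1 was knocked down by RNA interference (RNAi) in both. The comparison rests on 8 of the 40 RNA-sequencing libraries of the series, chosen by the genotype and treatment in their labels: 4 libraries of strain MQ130, which carries clk-1(qm30), and 4 of the wild type strain N2. Both groups received repo-1 RNAi from hatch and were collected on day 1 of adulthood as whole animals, so the knockdown is shared and the clk-1 allele is the labelled difference. The same pair of genotypes on empty vector, the control RNAi without a target, added another 8 libraries and gives the effect of clk-1 without the knockdown. The 12 libraries of eat-2(ad1116) (strain DA1116), raga-1(ok386) (VC222) and age-1(hx546) (TJ1052) mutants on repo-1 RNAi served for comparison with other long-lived strains. The question was what the clk-1 mutation still changes when a splicing factor is reduced in mutant and wild type alike.

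The clk-1 gene encodes the mitochondrial hydroxylase that carries out the penultimate step of ubiquinone synthesis, and ubiquinone carries electrons from complexes I and II to complex III of the respiratory chain. Worms without clk-1 activity develop, move and defecate slowly, live long, and depend on ubiquinone from the bacteria they eat. REPO-1 is the worm form of SF3A2, a component of the U2 particle that binds the branch site of introns.

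Values are the authors' normalized counts, read counts divided by 1 size factor per library. Genes were tested with limma, a linear model fitted over all 40 libraries, on log2(value + 1), and a gene was called at a Benjamini-Hochberg adjusted p under 0.05. The 8 libraries held 14.1 to 22.4 M assigned reads, M standing for 1e6, and 12327 of 20956 genes in the table had a mean of at least 10 and were tested. The labels name 4 batches, numbered as the replicates are, but do not state what a replicate was taken from. The p-values therefore cover variation among these libraries, which may be technical. The clk-1 libraries on repo-1 RNAi fell into 2 pairs. Batches 1 and 2 correlated with each other at 0.988 and batches 3 and 4 at 0.990, but the correlations across the pairs were 0.969 to 0.976 (Pearson, log2 values, across genes). Wild type libraries on the same RNAi correlated at 0.989 to 0.991. On the first principal component, which held 27.6% of the variance, the clk-1 libraries of batches 1 to 4 lay at 15.4, 12.2, 57.9 and 52.7, and the wild type libraries between -16.3 and -6.52. The library names share 1 tag in batches 1 and 2 and another in batches 3 and 4. Values within each pair of batches are given where a call is lost, a direction turns or the larger of a list's counts moves by over 1.5 times.

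Both genes named in the design were measured first. Transcripts of clk-1 (WBGene00000536, chromosome III, 5277894 to 5279344 in WBcel235) stood at 97.8, 80.3, 75.9 and 88.4 normalized counts in the clk-1 libraries on repo-1 RNAi, batches 1 to 4, and at 249.9, 231.2, 232.4 and 229.2 in the wild type. All mutant libraries lay far below all wild type libraries. The mean was 36.3% of the wild type's (log2 fold change -1.46 ± 0.14, SE, n = 4 per group, limma adjusted p = 1.9e-11), and on empty vector it was 34.1%. The qm30 allele is a deletion, so reads counted for the gene can come from the part that remains. Transcripts of repo-1 (WBGene00008683, chromosome IV, 12084478 to 12085320) stood at 243.9, 258.3, 288.9 and 270.2 in clk-1 and at 310.3, 314.1, 342.1 and 307.3 in the wild type. The groups did not overlap, and clk-1 animals held slightly less of it (-0.26 ± 0.09, limma adjusted p = 0.0096). The difference was also present on empty vector (-0.34), where the means were 660.9 ± 21.7 (SD, n = 4) in clk-1 and 839.0 ± 33.6 in the wild type. From empty vector to RNAi, repo-1 fell by 1.32 on the log2 scale in clk-1 and by 1.40 in the wild type, so the transcript was reduced in both and removed in neither.

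The mutant still differed from the wild type across the transcriptome. Of the genes tested, 7184 were called (58.3%), 3614 higher in clk-1 (29.3%) and 3570 lower (29%). The 4 libraries of one group all lay above the 4 of the other for 6837 genes (55.5%). Most differences were small. Of the called genes, 4217 changed by less than 1.5-fold, while 1109 were over 2-fold higher and 278 over 2-fold lower. The median log2 fold change over all tested genes was 0.03, with an interquartile range from -0.27 to 0.48.

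A similar number of genes was called on empty vector: 7181 (58.3%), with 3432 higher (27.8%) and 3749 lower (30.4%), and groups that did not overlap for 7111 genes (57.7%). The 2 comparisons share no library. In the same direction on both treatments 4793 genes were called, 2165 higher and 2628 lower, and in opposite directions 329. A further 2062 genes were called on RNAi alone and 2059 on empty vector alone. Across genes, the 2 sets of fold changes correlated at a Pearson r of 0.567 and a Spearman rho of 0.551. Genes are not independent replicates, and the value describes these libraries only. For scale, the RNAi fold changes in batches 1 and 2 correlated with those in batches 3 and 4 at a Pearson r of 0.735, and the corresponding value on empty vector was 0.874.

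**Figure D1:**
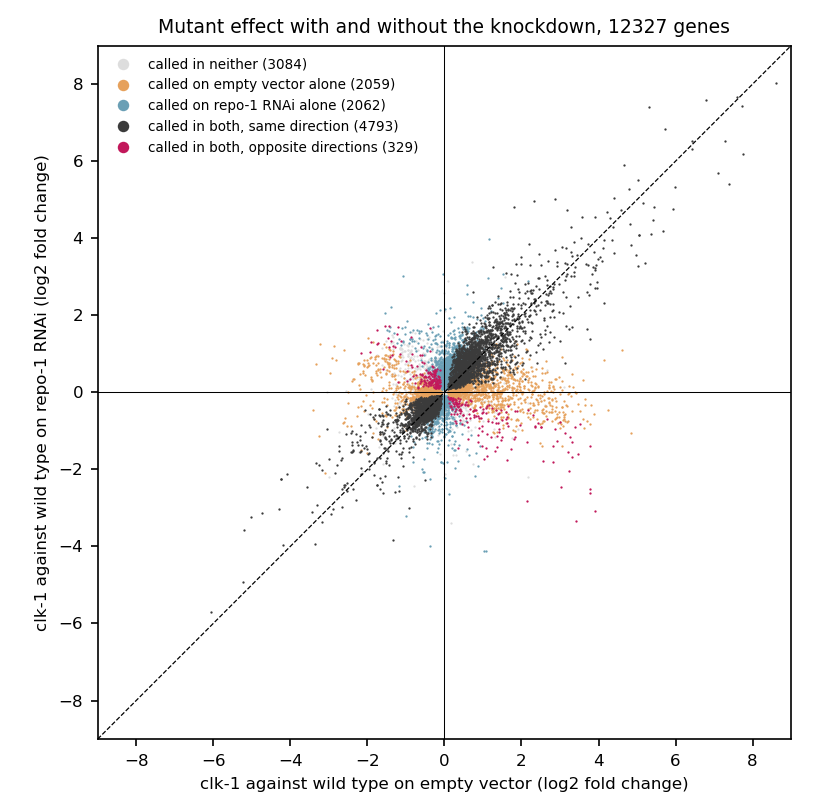
The log2 fold change of clk-1 against wild type on empty vector (x axis) is plotted against that on repo-1 RNAi (y axis) for 12327 genes, each a point, coloured by where limma called it. The 4793 genes called in the same direction on both treatments follow the diagonal, and a column of genes far to the right on the x axis lies near or below 0 on the y axis.

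The rise of genes in clk-1 was smaller on RNAi than on empty vector for the genes that rose on empty vector. Those 3432 genes had a median log2 fold change of 0.76 without the knockdown and of 0.49 with it, and 2165 of them (63.1%) were called higher again while 164 were called lower. The 3749 genes that were lower on empty vector had medians of -0.38 and -0.29, and 2628 (70.1%) were called lower again. Since these genes were chosen by their empty vector values, a value nearer 0 in the other comparison is in part set by that choice. Seen from the other side, the 1109 genes over 2-fold higher on RNAi had medians of 1.41 on RNAi and 1.03 on empty vector, and 831 of them (74.9%) were called higher on empty vector too. The difference between the effects of clk-1 on the 2 treatments was called for 2908 genes (23.6%), 1688 with a more positive effect on RNAi (13.7%) and 1220 with a more negative one (9.9%). That split depended on scaling: edgeR's TMM scaling gave 1323 and 1700, and edgeR's count test 1476 and 1850. In batches 1 and 2 alone, 1065 genes were called for this difference, against 2608 in batches 3 and 4 alone.

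Of 8 ubiquinone synthesis genes, 4 were higher in clk-1 on RNAi and clk-1 itself was lower. The gene coq-1 encodes the polyprenyl diphosphate synthase that builds the side chain of ubiquinone. It stood at 1133, 1268, 1147 and 1078 in the clk-1 libraries and at 520.6, 580.9, 558 and 536.5 in the wild type. Every mutant library lay far above every wild type library (1.07 ± 0.09, limma adjusted p = 3.6e-12; 0.76 on empty vector). The gene coq-8, for an atypical kinase required for ubiquinone synthesis, stood at 1869.6, 1819, 1868 and 1877 against 1324, 1303, 1334 and 1268 (0.51 ± 0.04, limma adjusted p = 5.4e-13; 0.40 on empty vector). The assembly factor coq-4 rose by 0.46 and the ring hydroxylase coq-6 by 0.25. In batches 1 and 2 alone their log2 differences were 0.32 and 0.21 and were not called. The values of coq-2, for the enzyme that joins side chain and ring, and of the methyltransferases coq-3 and coq-5 were 0.06, 0.10 and -0.03, none of them called.

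Transcripts of the mitochondrial genome were higher in clk-1 on repo-1 RNAi, and the effect differed between treatments. Of 12 protein-coding mitochondrial genes, 11 were higher and 1 lower on RNAi (median 0.65), against 1 higher and 3 lower on empty vector (median -0.06), and the difference between treatments was called for 11, all with a more positive effect on RNAi. The gene nduo-5 encodes subunit 5 of complex I (MtDNA, 11691 to 13272). It stood at 10212, 11037, 11099 and 10387 in clk-1 and at 5659.9, 6015, 6120.0 and 5463 in the wild type. All 4 mutant libraries exceeded all wild type libraries by a wide margin (0.88 ± 0.06, limma adjusted p = 3.3e-14). On empty vector the means were 6427 ± 505 in clk-1 and 6191 ± 489 in the wild type (0.05, limma adjusted p = 0.48), and the difference between treatments was 0.82 ± 0.09 (limma adjusted p = 1.2e-08). Among the others, nduo-2, for another subunit of complex I, rose by 0.99 and ctc-3, for subunit 3 of cytochrome c oxidase, by 0.75. The exception was ctb-1, for cytochrome b of complex III, at 3476, 3925, 4193 and 3669 in clk-1 and 4962, 5120.1, 4934 and 4028 in the wild type. One clk-1 library lay above the lowest wild type library, and the fall was small (-0.32 ± 0.09, limma adjusted p = 0.0023). It was larger on empty vector (-1.02) and was not called in batches 3 and 4 alone (-0.18). The summed share of the 12 genes was 0.294 to 0.343% of a library in clk-1 and 0.187 to 0.220% in the wild type.

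Nuclear genes for the respiratory chain and ATP synthase rose as well, by less. Of 63, 39 were higher and 6 lower on RNAi (median 0.25), against 9 and 21 on empty vector (median -0.01), and the effect was more positive on RNAi for 39 and more negative for none. With TMM scaling that last count was 28 and 1, with quantile scaling 26 and 1, in batches 1 and 2 alone 15 and 0, and in batches 3 and 4 alone 26 and 0. The gene gas-1, for the 49-kDa-type core subunit of complex I, rose by 0.86 ± 0.08 on RNAi and by 0.25 on empty vector (limma adjusted p = 3.3e-11 and 0.0095). Among the 6 falls, several were in genes with a paralog on the list that rose. The flavoprotein gene of complex II sdha-1 rose by 0.67 while sdha-2 fell by 0.50, the complex III core gene ucr-2.1 rose by 0.79 while ucr-2.3 fell by 0.54, and the ATP synthase subunit b gene asb-2 rose by 0.72 while asb-1 fell by 0.60.

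Of 15 genes of the mitochondrial stress response, 12 were higher and 2 lower on RNAi (median 0.40), against 10 and 2 on empty vector (median 0.28). The mitochondrial Hsp70 gene hsp-6 stood at 25174, 25357, 26107 and 26550.1 in clk-1 and at 13590.1, 12988, 13224 and 13008 in the wild type. The groups were tight and far apart (0.97 ± 0.06, limma adjusted p = 1.3e-16; 0.84 on empty vector). The inner membrane import channel gene timm-23 rose by 1.00. The glycolytic gene gpd-2, for glyceraldehyde-3-phosphate dehydrogenase, rose by 1.57 on RNAi and 0.94 on empty vector, and its near-identical neighbour gpd-3 by 1.40 and 0.76. Reads of these 2 can be shared, so their separate values are uncertain. The mitochondrial chaperonin gene hsp-60 and the ubiquitin-like gene ubl-5, both parts of the same response, fell by 0.37 and 0.81, the latter not called in batches 1 and 2 alone (-0.44).

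**Figure D2:**
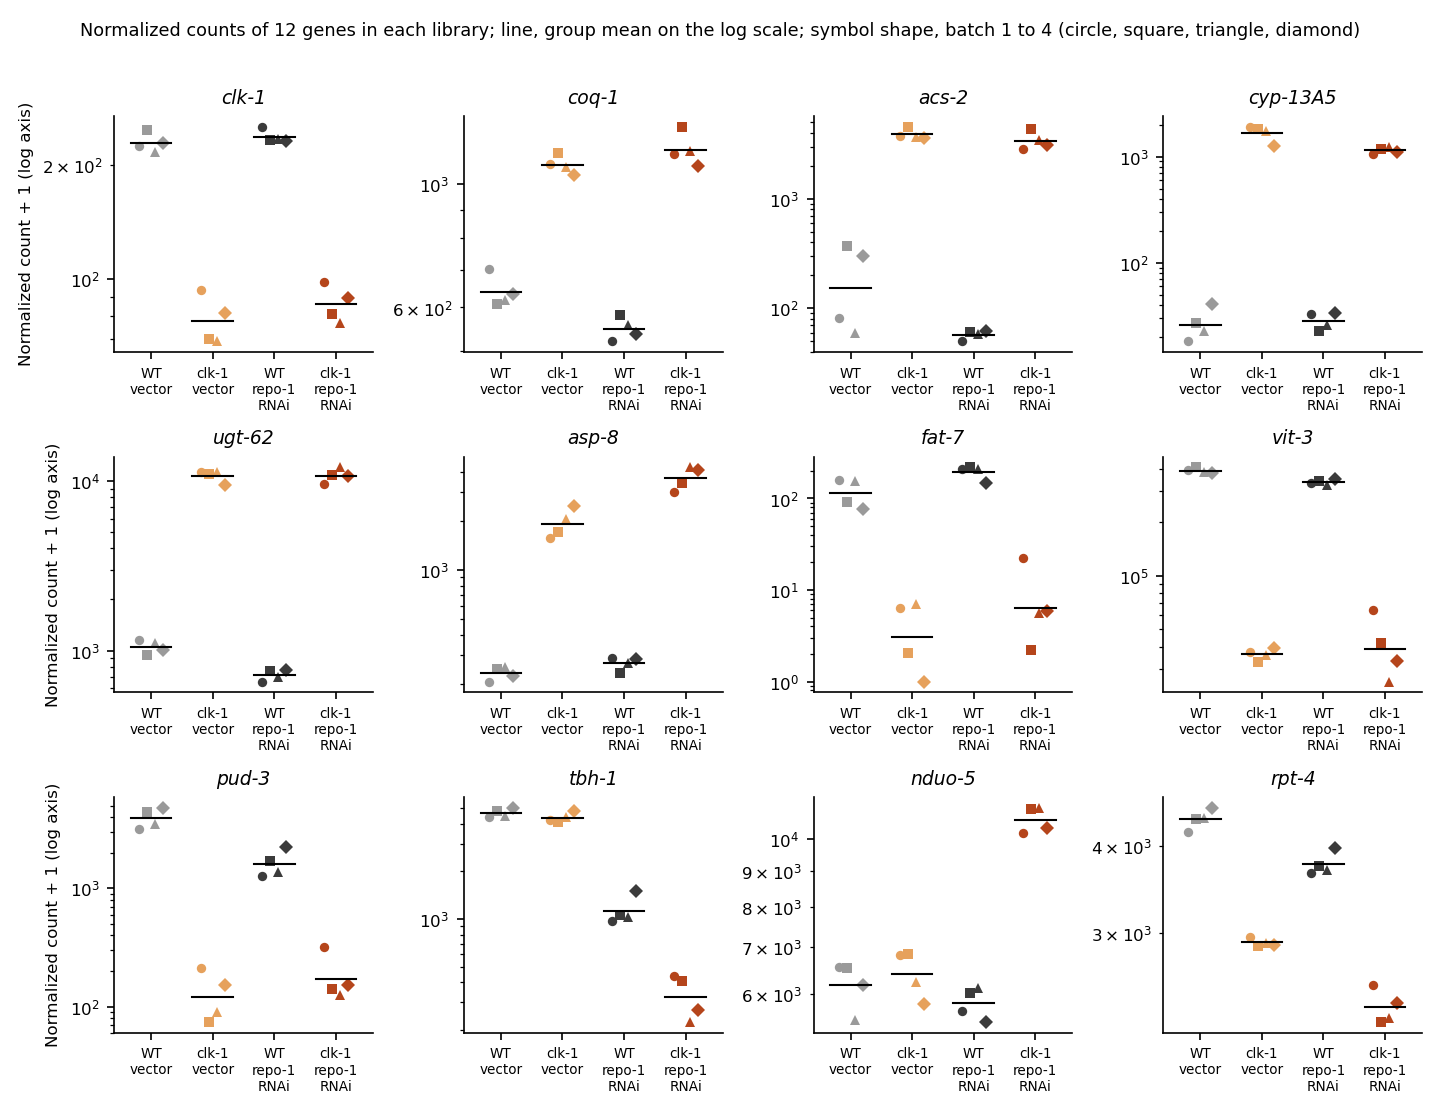
Normalized counts plus 1 (log axis) are plotted for 12 genes in each library of wild type and clk-1 on empty vector and on repo-1 RNAi, with 4 libraries per group, a symbol shape per batch and a line at the mean on the log scale. In the panels of cyp-13A5, ugt-62, fat-7 and vit-3 the genotypes stay apart on both treatments, whereas in those of nduo-5 and tbh-1 they part on repo-1 RNAi alone.

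Of the 15 largest rises without overlap among genes averaging 100 or more, 6 were in cytochrome P450 genes, and all 15 genes were called higher on empty vector too. The cytochrome P450 gene cyp-13A7 (chromosome II, 9803620 to 9805513) stood at 591.6, 608, 799.2 and 565 in clk-1 and at 2.83, 0.988, 0.915 and 5.88 in the wild type, where it was close to undetected (7.65 ± 0.49, limma adjusted p = 1.4e-15; 7.58 on empty vector). The nearby cyp-13A5 stood at 1062, 1170.3, 1239.8 and 1112 against 32.1, 21.7, 24.7 and 32.7 (5.33 ± 0.20, limma adjusted p = 4.0e-22). The mutant libraries were uniform and more than an order of magnitude above the wild type. Other P450 genes among the 15 largest rises were cyp-13A8 (6.84), cyp-13A12 (5.26), cyp-14A4 (4.82) and cyp-33C8 (4.36). The P450 family as a whole did not move one way: of 55 genes, 23 were higher and 17 lower (median 0.05, but -0.08 in batches 3 and 4 alone and -0.20 with quantile scaling; 22 and 9 in batches 1 and 2 alone), and cyp-35A3, cyp-35C1 and cyp-14A3 fell by 3.17, 2.56 and 2.34.

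The glucuronosyltransferase gene ugt-62, for an enzyme that conjugates sugars to small molecules, stood at 9517, 10841, 11998 and 10636 in clk-1 and at 655.5, 757.7, 693.4 and 772.4 in the wild type. It had the smallest error of the large rises (3.90 ± 0.07, limma adjusted p = 1.2e-32), and the rise exceeded that on empty vector by 0.54 ± 0.09. Of 52 genes of its family, 21 were higher and 8 lower (median 0.40), with ugt-18, ugt-19 and ugt-2 at 4.00, 3.55 and 3.33. With quantile scaling the family count was 16 and 12 and its median 0.0047. Of 32 glutathione transferase genes, 16 were higher and 3 lower (median 0.42), including gst-24 (2.26) and gst-6 (2.38). The cadmium-responsive genes cdr-2 and cdr-4 rose by 3.95 and 3.46. The degenerin-type channel gene delm-2 stood at 312.4, 443.7, 450.7 and 395.5 against 0.943, 0.988, 1.83 and 1.68 in the wild type (7.42 ± 0.43, limma adjusted p = 1.0e-16). Its rise was larger than on empty vector by 2.11 ± 0.61, and another channel gene of that class, acd-1, rose by 4.08. The gene pals-6, of a family known from the response to intracellular infection, rose by 4.72 and asp-8, for an aspartyl protease, by 3.78.

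Genes for fat and carbohydrate use moved in both directions. The acyl-CoA synthetase gene acs-2, which feeds fatty acids into mitochondrial oxidation, stood at 2864, 4312, 3434 and 3087 in clk-1 and at 49, 59.3, 56.7 and 60.5 in the wild type (5.89 ± 0.40, limma adjusted p = 5.9e-15). No library came near the other group. The fold change was 4.67 on empty vector, and the difference between treatments was not called (1.22 ± 0.56, limma adjusted p = 0.12). The enoyl-CoA hydratase gene ech-9 stood at 182.4, 106.3, 414.3 and 396.7 against 7.54, 10.9, 5.49 and 4.2, with batches 3 and 4 of clk-1 above batches 1 and 2 (log2 fold changes of 6.13 and 3.80). Of 59 fatty acid oxidation genes, 28 were higher and 13 lower (median 0.20), and the peroxisomal acyl-CoA oxidase gene acox-1.2 was lower (-1.99).

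The desaturase gene fat-7, for an enzyme that makes oleic from stearic acid, was nearly absent in clk-1 at 21.2, 1.24, 4.65 and 4.91 normalized counts, against 207.5, 217.3, 207.7 and 147.8 in the wild type (-4.93 ± 0.43, limma adjusted p = 4.6e-12; -5.22 on empty vector). The related desaturase fat-5 fell by 1.09. Downstream in the same pathway, the Δ12 desaturase gene fat-2 stood at 17718, 18002, 19819 and 19424 against 7732, 7696, 7687 and 7496 (1.29 ± 0.06, limma adjusted p = 6.2e-19), and the omega-3 desaturase gene fat-1 rose by 1.1. Over 14 desaturase and elongase genes, 4 were higher and 4 lower (median -0.18, and 0.02 in batches 3 and 4 alone). These counts are near the shares over all genes tested, 29.3% higher and 29% lower.

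Of 15 genes of the glyoxylate shunt, gluconeogenesis and trehalose synthesis, 12 were higher and 2 lower on RNAi (median 0.53), against 7 and 5 on empty vector (median 0.06). Their mean summed share was higher in clk-1 on both treatments, at 0.623 against 0.418% on RNAi and 0.669 against 0.448% on empty vector. The phosphoenolpyruvate carboxykinase gene pck-1, for the committed step of gluconeogenesis, stood at 11529.8, 11827, 14117 and 13846 in clk-1 and at 2624, 2536, 2592 and 2638 in the wild type (2.30 ± 0.09, limma adjusted p = 3.1e-22). The rise was larger than on empty vector by 0.39 ± 0.12 (limma adjusted p = 0.016). The glyoxylate enzyme gene icl-1 rose by 2.01 and the trehalose synthesis gene tps-1 by 1.15, while the glyceraldehyde-3-phosphate dehydrogenase genes gpd-1 and gpd-4 fell by 0.90 and 1.02.

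The yolk protein genes split. Vitellogenins are made in the adult intestine and taken up by oocytes. The gene vit-3 stood at 64068, 41854, 25422 and 33312 in clk-1 and at 332354, 340022, 323222 and 348795 in the wild type. Every mutant library lay far below every wild type library (-3.11 ± 0.14, limma adjusted p = 3.9e-20; -3.42 on empty vector). The genes vit-1, vit-4 and vit-5 fell by 2.92, 2.51 and 0.65. In contrast, vit-2 stood at 981189, 999423, 883293 and 934376 against 591954, 599941, 564879 and 628329.9 (0.67 ± 0.09, limma adjusted p = 5.5e-08), and vit-6 rose by 0.55. With quantile scaling vit-2 was at 0.03, vit-6 at -0.03 and vit-5 near 0, none of them called. That scaling gives the highest-ranked genes nearly the same values in every library, so it cannot decide whether these genes changed. Several vit genes are close copies of each other, so reads can be split among them. The 6 genes together took 12.3 to 14% of a clk-1 library and 13.7 to 15% of a wild type library.

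Other large falls were in genes of the pud group, known as proteins raised in insulin-receptor mutants. The gene pud-3 stood at 318.5, 139.6, 124.7 and 149.8 against 1270.4, 1689, 1365 and 2243 (-3.23 ± 0.26, limma adjusted p = 7.4e-13). The fall was smaller than the -5.02 on empty vector, by 1.79 ± 0.37. The genes pud-4 and pud-1.2 fell by 3.04 and 2.12, and the near-identical pud-2.1 and pud-2.2 both show -2.25. The acid sphingomyelinase gene asm-3 stood at 77.6, 29.7, 12.4 and 12.3 against 365.9, 407, 367.8 and 455.9 (-3.96 ± 0.36, limma adjusted p = 1.4e-11). Its fall was deeper in batches 3 and 4 (-4.94) than in batches 1 and 2 (-2.98).

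Of 9 hypoxia response genes, 7 were higher and 1 lower on RNAi (median 0.50), against 5 and 0 on empty vector (median 0.56). The lower gene fell by over 2-fold. The nuclear receptor gene nhr-57, a target of the hypoxia factor HIF-1, rose by 2.38, the sulfide quinone oxidoreductase gene sqrd-1, whose enzyme passes electrons from sulfide to ubiquinone, by 1.93, and the cysteine synthase-like gene cysl-2 by 1.27. For cysl-2 the rise was smaller than on empty vector (2.48), by 1.21 ± 0.21. Of 16 antioxidant genes, 10 were higher and 5 lower (median 0.25; 10 and 1 in batches 1 and 2 alone). The mitochondrial superoxide dismutase gene sod-3 stood at 226.8, 243.5, 230.8 and 213.7 against 67.9, 65.2, 54.9 and 54.6 (1.90 ± 0.17, limma adjusted p = 9.2e-12), and the groups were far apart. The catalase gene ctl-1 and the mitochondrial thioredoxin genes trx-2 and trxr-2 rose by 1.18, 0.81 and 0.84. The cytosolic superoxide dismutase gene sod-1 fell by 0.18 (not called in batches 1 and 2 alone).

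Genes of protein turnover, translation and splicing were lower in clk-1 on RNAi. All 31 proteasome genes tested were lower (median -0.49), as on empty vector (median -0.47), and the same count held in each pair of batches. The gene rpt-4, for an ATPase of the proteasome's base, stood at 2521, 2229, 2262 and 2374 against 3651, 3744, 3688 and 3976 (-0.68 ± 0.04, limma adjusted p = 3.5e-16). All mutant libraries lay well below the wild type. Of 57 spliceosome genes, 43 were lower and 3 higher (median -0.22), against 45 and 0 on empty vector (median -0.23). The gene lsm-8, for a component of the ring that binds U6 RNA, was the furthest down (-0.78), followed by lsm-3 (-0.64) and the Sm gene snr-3 (-0.57). Of 71 mitochondrial ribosome genes, 46 were lower and 3 higher (median -0.27), against 53 and 2 on empty vector (median -0.31). Of 31 aminoacyl-tRNA synthetase genes, 23 were lower and 1 higher (median -0.22), against 22 and 1 on empty vector (median -0.34).

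For the cytosolic ribosome the fall was smaller with the knockdown. Of 81 genes, 61 were lower and 2 higher on RNAi (median -0.21), against 80 and 0 on empty vector (median -0.63), and the effect was more positive on RNAi for 76 and more negative for none. With TMM scaling the last count was 75 and with quantile scaling 58. The gene rps-23, for a protein of the small subunit, stood at 14188, 12015, 13314 and 14186 against 17563, 16697, 17442 and 17963 (-0.38 ± 0.05, limma adjusted p = 2.0e-07), with no overlap. On empty vector the fold change was -0.74, and the difference was 0.36 ± 0.08 (limma adjusted p = 0.00042).

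Germline and oocyte transcripts were lower. Of 53 genes, 43 were lower and 3 higher on RNAi (median -0.29), against 40 and 2 on empty vector (median -0.24). Of 32 replication and cell cycle genes, 31 were lower and none higher on RNAi (median -0.40), against 25 and 0 on empty vector (median -0.24). The oocyte yolk receptor gene rme-2 fell by 0.50, the germline RNA-binding gene nos-2 by 0.55 and the replicative helicase gene mcm-6 by 0.62. The oocyte list took 2.45 to 2.62% of a clk-1 library and 3.14 to 3.19% of a wild type library. In whole-body RNA, fewer cells of a type and less RNA per cell cannot be told apart. Of 52 genes known to be transcribed first in the early embryo, 26 passed the filter on low values, and of these 15 were lower and 2 higher on RNAi (median -0.72), against 7 and 3 on empty vector (median -0.05). The count was 8 and 0 in batches 1 and 2 (median -0.47) and 16 and 1 in batches 3 and 4 (median -0.85). Their summed share was 0.0137 to 0.0164% in clk-1 and 0.0213 to 0.0225% in the wild type. The endoderm GATA factor gene end-1 fell by 1.5 on RNAi, a fall not called in batches 1 and 2 alone. Its mean on RNAi was 1.985 normalized counts in clk-1 and 8.185 in the wild type, and the groups overlapped. At values this low the size of the fall depends on the added 1. On empty vector end-1 was slightly higher in clk-1 (0.25, not called). The gene med-1, which acts upstream of end-1, was at 0 in all these libraries.

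Sperm transcripts depended on the batch pair. Major sperm proteins form the sperm cytoskeleton and signal to oocytes; their genes are near-identical, so single values are uncertain. Of 38 such genes tested, 2 were called higher and none lower on RNAi (median 0.72). The count was 0 higher and 2 lower in batches 1 and 2, and 34 and 0 in batches 3 and 4. Their summed share of a library was 0.0214, 0.0157, 0.101 and 0.0883% in the clk-1 libraries of batches 1 to 4 and 0.0198 to 0.0326% in the wild type. On empty vector the shares were 0.00220 to 0.00304% in clk-1 and 0.00459 to 0.0104% in the wild type, so that both genotypes held more on RNAi. The sperm phosphatase gene gsp-3 showed the same split, at 63.5, 64.3, 243.9 and 233.4 against 56.6, 51.4, 54.9 and 47.9 (1.22 ± 0.52, limma adjusted p = 0.043). Its log2 difference was 0.24 in batches 1 and 2 and 2.2 in batches 3 and 4.

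Some sperm genes rose in both pairs of batches. The gene spe-41, for the sperm TRP channel needed for fertilization, stood at 156.2, 181.7, 160.3 and 180.6 against 46.2, 49.4, 53.1 and 58.8 (1.69 ± 0.16, limma adjusted p = 1.9e-11; 1.97 on empty vector). The gene fer-1, for a membrane fusion protein of sperm, stood at 64.5, 71.7, 121.6 and 99.5 against 36.8, 30.6, 39.3 and 25.2 (1.38, limma adjusted p = 1.5e-05). Neither gene's groups overlapped. Over 28 other sperm genes tested, 13 were higher and 2 lower, and in batches 1 and 2 alone the count was 2 and 2. The summed share of the 10 male marker genes, none of which passed the filter on low values, was 9.07e-05 to 0.000156% in clk-1 and 9.44e-05 to 0.000119% in the wild type.

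Some falls were deeper on RNAi than on empty vector by the test of the difference, which also served to pick genes named here. The gene tbh-1 encodes tyramine beta-hydroxylase, which makes octopamine in a pair of neurons and in the gonadal sheath. It stood at 436.4, 406.6, 223.8 and 267.8 in clk-1 and at 969.6, 1066, 1026 and 1505 in the wild type. The 4 mutant libraries lay below all wild type libraries (-1.80 ± 0.19, limma adjusted p = 5.7e-10). On empty vector the means were 4388 ± 313 and 4696 ± 287 (-0.10, limma adjusted p = 0.68), and the difference was -1.71 ± 0.27 (limma adjusted p = 1.2e-05). Both genotypes thus held far less of it on RNAi than on empty vector, clk-1 more so. The heme peroxidase gene skpo-1, known from defence against bacteria, stood at 666.2, 805.8, 269.5 and 266.5 against 1918, 2195, 1979 and 2526 (-2.27 ± 0.20, limma adjusted p = 3.1e-12; -0.50 on empty vector). The falls of both genes were deeper in batches 3 and 4 (-2.34 and -3.06) than in batches 1 and 2 (-1.27 and -1.48). The chemoreceptor-family gene sri-40 followed the same course, at -2.25 on RNAi and -0.37 on empty vector. Over 10 genes of the gonadal sheath and octopamine synthesis, 4 were higher and 5 lower (2 and 4 in batches 1 and 2 alone): the receptor gene itr-1 rose by 0.91 and the gap junction gene inx-8 fell by 0.76.

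Some genes averaging 100 or more rose on RNAi, without overlap between the groups, and were not called on empty vector. Genes of this class were picked by a called difference between treatments, so the size of that difference is in part set by the choice. The cuticle collagen gene col-179 stood at 12834, 12864, 13264 and 12579.8 against 6561, 6055, 6334 and 5864 (1.06 ± 0.08, limma adjusted p = 2.9e-13). All 4 mutant libraries were above all wild type libraries, whereas on empty vector the fold change was -0.09 (difference 1.14 ± 0.12, limma adjusted p = 3.9e-09). The acyl-CoA oxidase gene acox-1.5 rose by 1.2 (-0.52 on empty vector), the flavin monooxygenase gene fmo-5 by 1.27 (0.12), and the carboxylesterase gene cest-13 by 0.90 (-0.24).

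Cuticlin genes stood far above the wild type on empty vector and mostly did not on RNAi. Cuticlins and related apical matrix proteins are structural parts of the cuticle laid down at molts. Of 34 such genes tested, 29 were higher and 2 lower on empty vector (median 2.55), against 4 and 3 on RNAi (median 0.10), and the effect was more negative on RNAi for 24 and more positive for none (13 and 0 in batches 1 and 2 alone). The median on RNAi turned to -0.28 with quantile scaling and to -0.30 in batches 3 and 4. Their summed share on empty vector was 0.0626 to 0.0706% in clk-1 and 0.00806 to 0.0139% in the wild type. On RNAi it was 0.0229, 0.0270, 0.0138 and 0.0150% in the clk-1 libraries of batches 1 to 4 and 0.0197 to 0.0214% in the wild type, so the mutant lay above the wild type in one pair of batches and below it in the other.

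Single genes showed the same loss. The cuticlin gene cut-3 stood at 11.1, 6.18, 0.774 and 7.37 in clk-1 and at 36.8, 67.2, 34.8 and 71.4 in the wild type on RNAi (-3.08 ± 0.55, limma adjusted p = 1.1e-05). On empty vector its means were 410.7 ± 72.4 and 27.2 ± 7.8, a fold change of 3.90, and the difference between treatments was -6.98 ± 0.78 (limma adjusted p = 1.9e-08). The collagen gene dpy-17, mutants of which are short and fat, stood at 442.4, 494.3, 164.9 and 164.6 against 708.3, 626.3, 717.2 and 676.7 (-1.29 ± 0.31, limma adjusted p = 0.00061). On empty vector it was higher in clk-1, at 3393 ± 138 against 374.1 ± 172 (3.30). In batches 1 and 2 alone its value on RNAi was -0.51 and was not called. The developmental timing gene hbl-1, a hunchback homolog, turned the same way, from 2.88 on empty vector to -0.95 on RNAi (-0.53 and not called in batches 1 and 2 alone), and the linker histone gene his-24 from 1.21 to -1.16. The molting genes mlt-11, for a protease inhibitor, and hch-1, for an astacin protease also used at hatching, rose by 3.11 and 3.89 on empty vector and stood at -0.24 and -0.57 on RNAi, neither called. On RNAi both took opposite signs in the pairs of batches. In clk-1, hch-1 stood at 141.1, 243.5, 41.04 and 40.5 normalized counts against 136.8, 128.4, 129 and 125.1 in the wild type (0.48 in batches 1 and 2, -1.61 in batches 3 and 4). For mlt-11 the log2 differences were 0.10 and -0.57.

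Collagens other than these were mixed. Of 177 collagen genes in the table, 130 were tested, with 28 higher and 16 lower on RNAi (median 0.11), and 25 and 37 on empty vector (median -0.35). The collagen count on RNAi was 17 and 28 in batches 1 and 2 (median -0.41), 52 and 15 in batches 3 and 4 (median 0.51), and 25 and 26 with quantile scaling (median -0.08). Over all genes tested, 29.3% were higher and 29% lower on RNAi. The summed share of the collagen genes was 4.005 to 4.188% in clk-1 and 2.907 to 3.319% in the wild type on RNAi. On empty vector that share was lower in clk-1, at 2.8 to 2.889% against 2.986 to 3.445%. Of 37 molting genes, 10 were higher and 4 lower on RNAi (median 0.15; 4 and 3 in batches 1 and 2 alone; median -0.01 with quantile scaling) against 14 and 6 on empty vector (median 0.48). The effect was more negative on RNAi for 11 molting genes and more positive for 2.

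**Figure D3:**
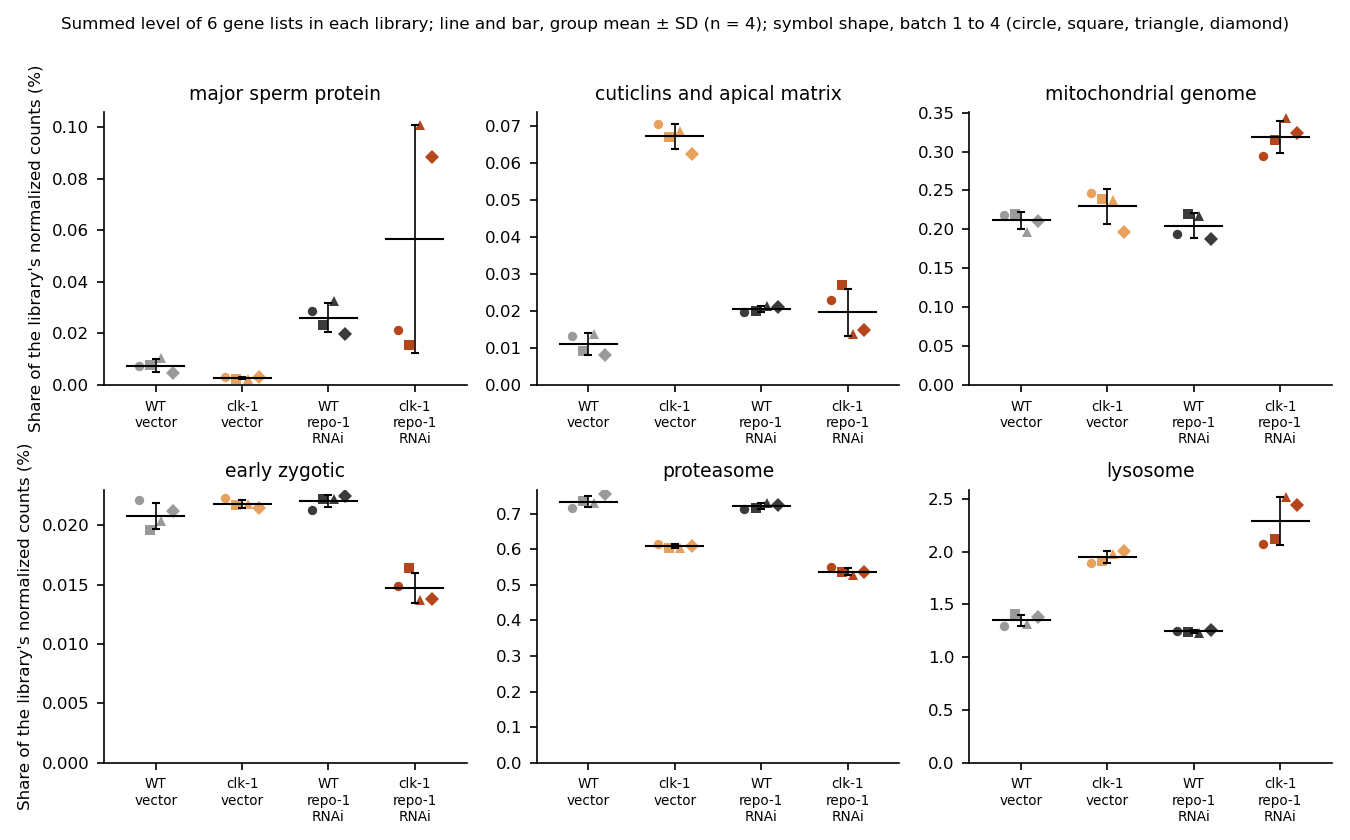
The summed normalized counts of 6 gene lists are plotted as a percentage of the library for wild type and clk-1 on empty vector and on repo-1 RNAi, with a point per library and the mean ± SD, n = 4. The clk-1 libraries on RNAi split by batch for major sperm proteins and apical matrix genes, while the proteasome and lysosome shares separate the genotypes in all 4 batches.

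Intestinal and lysosomal transcripts were higher in clk-1 on RNAi. Of 24 intestinal genes, 14 were higher and 5 lower (median 0.36, with 0.14 in batches 1 and 2 and 0.48 in batches 3 and 4), and their summed share was 0.675 to 0.840% in clk-1 and 0.427 to 0.433% in the wild type. On empty vector 8 were higher and 9 lower (median 0.04), but the share was again higher in clk-1 (0.595 to 0.636% against 0.444 to 0.495%). The gut esterase gene ges-1 rose by 1.03 and the gut GATA factor gene elt-2 by 0.74, while act-5, the actin of the microvilli, was at 0.05 and not called. The P450, conjugation and fat genes above include many that are active in the intestine, and the part of the intestinal markers in their rise was not tested. Of 51 lysosomal genes, 33 were higher and 11 lower on RNAi (median 0.31; 26 and 4 in batches 1 and 2 alone), against 16 and 19 on empty vector (median -0.08), and the effect was more positive on RNAi for 31 and more negative for none. The protease genes asp-12, cpr-3 and asp-1 rose by 3.24, 2.1 and 1.26, and the lysosomal lipase gene lipl-1 and the aspartyl protease gene asp-14 fell by 1.45 and 1.07. The list took 2.07, 2.12, 2.52 and 2.44% of the clk-1 libraries and 1.23 to 1.26% of the wild type libraries. Its share was also higher in clk-1 on empty vector, at 1.90 to 2.01% against 1.29 to 1.40%.

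Neuronal transcripts were higher too. Of 51 genes, 42 were higher and 1 lower on RNAi (median 0.85), against 30 and 3 on empty vector (median 0.49). The summed share was 0.100 to 0.116% in clk-1 and 0.0645 to 0.0747% in the wild type. The neuropeptide gene flp-9 rose by 1.38 and the synaptic vesicle gene rab-3 by 0.92, while unc-119, expressed throughout the nervous system, was the 1 gene that fell (-0.45, and -0.26 and not called in batches 1 and 2 alone). Of 33 body wall muscle genes, 18 were higher and 3 lower on RNAi (median 0.19), against 10 and 16 on empty vector (median -0.12). The muscle count in batches 1 and 2 alone was 5 and 3. Of the body wall muscle marker genes, the myosin gene myo-3 rose by 0.69 and unc-15 by 0.19. The markers unc-54 (0.04) and hlh-1 (-0.48) were not called, nor were the pharyngeal myosins myo-1 and myo-2.

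**Figure D4:**
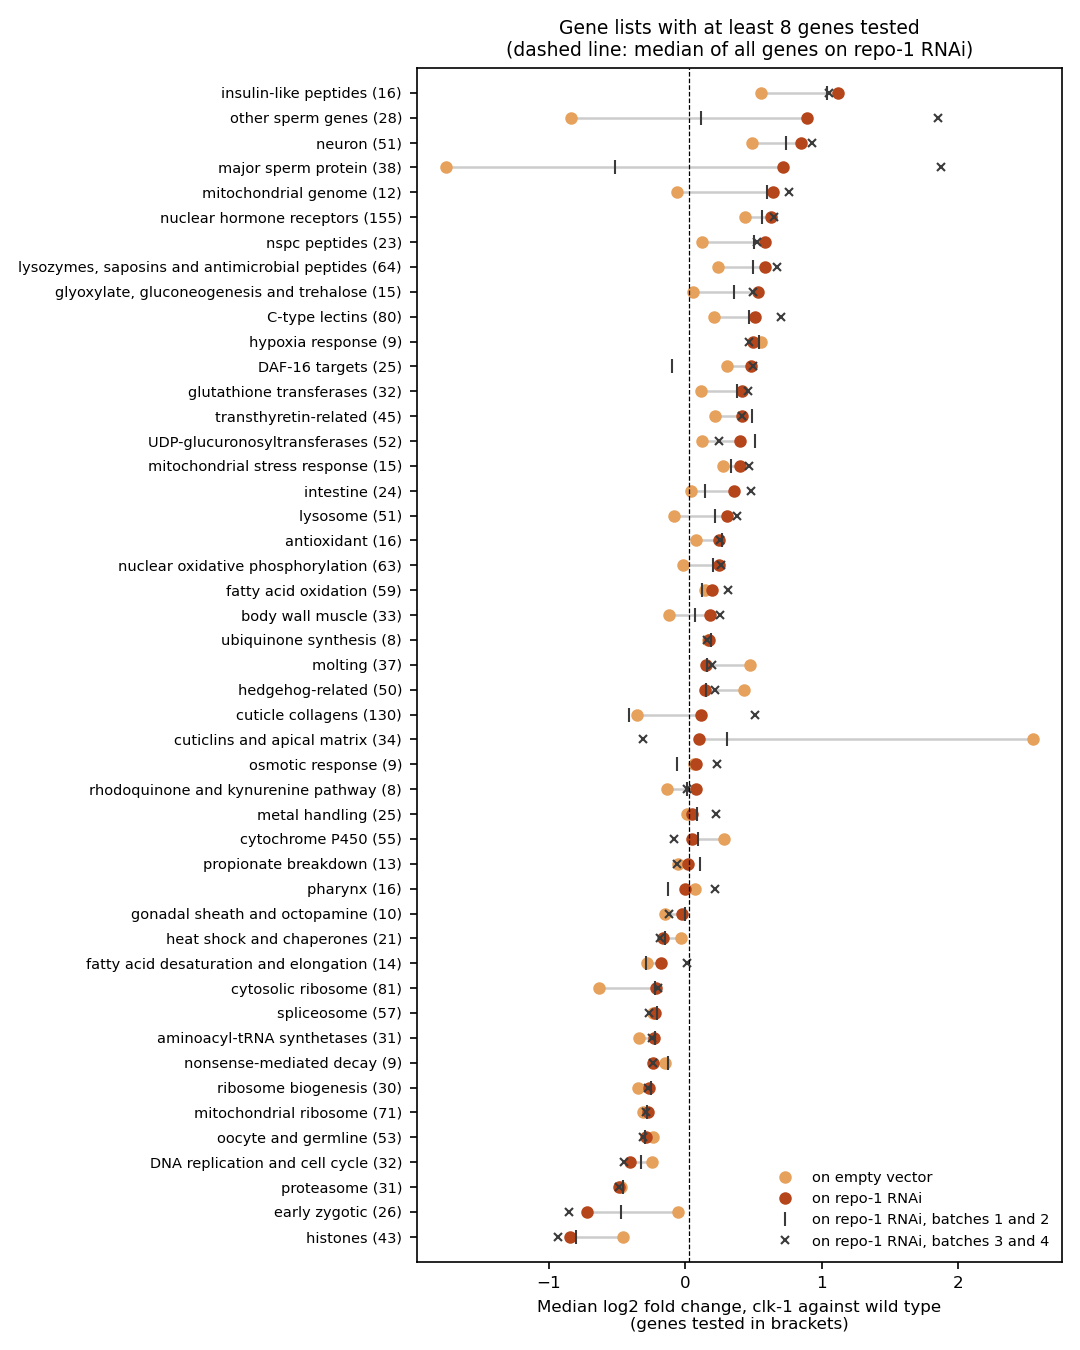
The median log2 fold change of clk-1 against wild type is plotted for each gene list with at least 8 genes tested, on empty vector and on repo-1 RNAi, with ticks for batches 1 and 2 and crosses for batches 3 and 4, and a dashed line at the median of all genes on RNAi. Cuticlins move from a median of 2.55 on empty vector to 0.10 on RNAi, mitochondrial genes from -0.06 to 0.65, and the proteasome stays near -0.5 on both.

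On repo-1 RNAi the clk-1 mutant also differed from the other long-lived mutants. Against the mean of eat-2, a feeding mutant, raga-1, which lacks a Rag GTPase of the TOR pathway, and age-1, with reduced PI3-kinase activity in insulin signalling, 5742 genes were called (46.6%). Of the mitochondrial genes, 9 were higher and 1 lower in clk-1 than in the mean of those mutants. Of the nuclear respiratory chain genes 39 and 2 were, and of the mitochondrial stress genes 13 and 1. Against the wild type, the mitochondrial median was 0.42 in raga-1, 0.21 in eat-2 and 0.10 in age-1, beside 0.65 in clk-1. The nuclear respiratory chain and mitochondrial stress medians were smaller in raga-1 than in clk-1 (0.07 and -0.33, against 0.25 and 0.40). Its neuronal and intestinal medians were larger (1.19 and 0.84, against 0.85 and 0.36). Those of proteasome, oocyte and replication genes were lower (-0.67, -0.70 and -0.80, against -0.49, -0.29 and -0.40). The difference for hsp-6 was 1.11, for acs-2 4.36, for cyp-13A7 8.10, for ugt-62 3.66 and for tbh-1 -1.82. Since these genes were named by their values in the same clk-1 libraries, the size of these differences is in part set by that choice. Each mutant's own value against the same wild type libraries differed by gene. For acs-2 the eat-2 mutant gave 2.97, raga-1 0.73 and age-1 0.88 beside the 5.89 of clk-1. In the order clk-1, eat-2, raga-1 and age-1, for delm-2 it was 7.42, 1.42, 5.09 and -0.13. For icl-1 the values were 2.01, 1.69, 2.51 and 0.81, and for pud-3 they were -3.23, -1.23, 2.03 and 1.86. These comparisons share their wild type libraries.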

How the data were processed

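RNA from whole day 1 adults was sequenced as stranded mRNA libraries, per the labels' protocols. Build WBcel235 and the tools STAR, Salmon 0.14.2, DESeq2, MultiQC and FastQC 0.11.8 are listed in the submitters' processing notes. The deposited values are a signal of normalized counts per gene. In each library, dividing by its smallest value above 0 gave whole reads for 100% of values within 0.01, as counts divided by 1 factor per library would, and depth comes from these reads. How reads of near-identical genes were shared out is not given in the sources used here. Table names were matched to Ensembl 115 gene IDs (19897 with a name). No gene sequence table was used here.

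Differences were tested with limma 3.58.1 (trend, R 4.3.3) on log2(value + 1), which understates folds of low genes, over all 40 libraries with 1 mean per group, for genes with a mean of at least 10. Adjusted p-values cover all 12327 genes tested. Alternatives, compared in the closing section, were pseudocounts 0.5 and 5, no filter or a mean of 50, quantile and TMM scaling, array weights, only the compared groups, the replicate block, pairs of batches, leaving out each library, and edgeR 4.0.16 and DESeq2 1.42.0 on the recovered reads.

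The replicate number is the labelled batch, so same-numbered libraries pair by label. Their deviations from group means correlated at -0.03, 0.19, 0.25 and -0.01 on RNAi. Genes, the 49 gene lists and comparisons were chosen with earlier results of these data known; 10 of 478 listed names matched no gene. Named genes are clk-1, repo-1 and ubiquinone genes; the 15 largest rises and the 15 largest falls without overlap, from genes averaging 100 or more, up to 6 each way called on both treatments, on RNAi alone or on empty vector alone, and 4 turned; and up to 4 called members each way of each list. Genes named as called on RNAi alone or on empty vector alone also had to be called for the difference between treatments. They were ranked by its size, so that test is not separate evidence for them. Cell type markers were a separate list. The uncalled coq genes, act-5, myo-1, myo-2, unc-15, unc-54, hlh-1, med-1, fer-1 and rab-3 come from these marker and pathway lists. A list is described by its counts and median.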

Additional observations from a re-analysis of the deposited data

Results flagged for a closer look

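Limma called a difference between the effects of clk-1 on repo-1 RNAi and on empty vector for 33 of 68 genes examined here. Over all genes tested the share was 23.6%. Some of the 68 were named because this difference was called, so their count is in part set by that choice. All values are log2 differences, RNAi minus empty vector. A more positive effect on RNAi was found for mitochondrial and metabolic genes: nduo-5 (0.82), ctb-1 (0.71), gas-1 (0.61), coq-5 (0.23), gpd-2 (0.63), pck-1 (0.39), ech-9 (2.64) and acox-1.5 (1.72). It was also found for the detoxification and digestive genes ugt-62 (0.54), fmo-5 (1.16), cest-13 (1.15), asp-8 (0.72) and ilys-5 (1.36), an invertebrate-type lysozyme gene. On RNAi the mean of ilys-5 was still lower in clk-1 (1856) than in the wild type (6755). The channel gene delm-2 (2.11), pud-3 (1.79), the ribosomal gene rps-23 (0.36), col-179 (1.14), the insulin-like gene ins-17 (0.63) and the nuclear receptor gene nhr-210 (0.78) also gave positive differences. So did the sperm genes gsp-3 (2.35), msp-81 (2.97) and spch-3 (2.46), the last a sperm chromatin gene.

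A more negative effect on RNAi was found for the cuticle, molting and developmental genes cut-3 (-6.98), dpy-17 (-4.59), hch-1 (-4.46), hbl-1 (-3.82), mlt-11 (-3.35) and his-24 (-2.37). The others were sri-40 (-1.89), skpo-1 (-1.77), tbh-1 (-1.71), cysl-2 (-1.21) and nos-2 (-0.32).

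Of 136 groups of 4 libraries examined, 7 held a library far from the other 3 by Dixon's criterion, and chance gives about 1 in 20. In the wild type on RNAi they were batch 1 for clk-1 (249.9 normalized counts) and batch 4 for fat-7 (147.8), ctb-1 (4028) and cest-13 (302.3). In clk-1 on RNAi they were batch 1 for pud-3 (318.5) and batch 2 for coq-8 (1819) and mcm-6 (4035.0).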

How the results depend on the processing

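The number of genes called between clk-1 and wild type on repo-1 RNAi, 7184, lay between 6158 and 8208 under every setting except batches 1 and 2 alone, which gave 4696 from fewer libraries. edgeR on the recovered reads called 7806 genes and DESeq2 7623. With the replicate block, which pairs libraries by the labelled batch, 7288 were called on RNAi, 7264 on empty vector and 3031 for the difference between treatments. The block changed no call among 354 named genes but 1, which became called. Leaving out 1 library gave 6525 to 7105 on RNAi, 6725 to 6897 on empty vector, 2425 to 3029 for the difference and 5184 to 5836 against the other mutants. The count for the difference between treatments was 4622 with array weights and 1065 in batches 1 and 2. For these counts and the reversals below the cause was not tested. In batches 1 and 2 alone the log2 fold changes of spch-3 (-0.14), msp-81 (-0.067) and nspd-2 (-0.10) turned, in batches 3 and 4 alone those of col-3 (0.39) and nas-37 (0.010), and with quantile scaling that of vit-6 (-0.032). Quantile scaling gives the highest-ranked genes nearly the same values in every library, so the vit-6 value cannot decide its direction. In batches 1 and 2 alone 71 named genes lost their call without turning, and in batches 3 and 4 alone 25. The genes that turned are not in these counts. The major sperm protein count depended on the test: 2 genes were called with limma, 26 with edgeR, 20 with DESeq2 and 0 with quantile scaling. Low values limit genes near 0 in one genotype, whose fold changes depend on the added 1.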

Other observations

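Several families not described above moved mostly one way in clk-1 on repo-1 RNAi. Of 155 nuclear hormone receptor genes tested, 92 were higher and 11 lower (median 0.63, against 0.03 over all genes tested), and on empty vector 65 and 11 (median 0.44). The count on RNAi was 57 and 19 with quantile scaling (median 0.30) and 56 and 5 in batches 1 and 2 alone. The gene nhr-210 rose by 2.68 and nhr-178 by 2.82. The receptor gene nhr-114 fell (-3.20 ± 0.90, limma adjusted p = 0.0028), but was not called in batches 3 and 4 alone (-1.83). It stood at 0, 37.1, 31.8 and 56.5 in clk-1 and at 238.6, 87.9, 144.5 and 163.7 in the wild type. With a library at 0, the size of the fall depends on the added 1. Of 16 insulin-like peptide genes, 12 were higher and 1 lower (median 1.12; 7 and 1 in batches 1 and 2 alone), with ins-5 at 2.12 (not called in batches 1 and 2 alone), ins-17 at 1.35 and the lower gene ins-34 at -1.35. Of 45 transthyretin-related genes, 24 were higher and 6 lower (median 0.41). Of 43 histone genes, 24 were lower and 6 higher (median -0.84). Many histone genes are near-identical, so their single values are uncertain.

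Genes linked to defence were mixed with more rises than falls. Of 80 C-type lectin genes, 39 were higher and 11 lower (median 0.52), with clec-17 at 4.30, clec-60 at 3.86 and clec-4 at 3.08, and clec-190 at -3.93. Of 64 genes for lysozymes, saposins and antimicrobial peptides, 37 were higher and 9 lower (median 0.58). The antimicrobial peptide gene abf-2 rose by 4.68, while the thaumatin-like gene thn-1 fell by 3.37 and the infection response gene irg-5 by 2.42. Among 21 heat shock and chaperone genes, 4 were higher and 11 lower (median -0.16), with hsp-17 at 2.28, hsp-12.1 at -1.29 (not called in batches 1 and 2 alone) and the cytosolic Hsp90 gene hsp-90 at -0.52.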
